A study of Bos taurus with 16 samples.

Results

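Genes of cytotoxic and helper T cells were followed in the lining of the bovine uterus after calving: GZMA, GZMB, NKG7, PRF1, CD3D, CD3E, CD8A, CD4, KLRK1 and NCR1. They were found on the array by gene name, which gave 10 genes of 25325 distinct names in the files' gene name column (transcript identifiers included), with 24 of 43653 probes. Of these, 18 probes of 9 genes passed the filter on dim probes (a signal well above background in 4 or more of the 16 arrays) and were tested, while the only probe of NCR1 did not pass. The endometrium of 4 fertile cows was sampled 4 times by biopsy forceps from the uterine horns, and total RNA of each biopsy was hybridised to a one-colour oligonucleotide array. The 4 groups, of 4 cows each, are named days 10, 30, 50 and 100 after parturition, and the labelled days ran from 9 to 10, 29 to 30, 49 to 51 and 99 to 100. No treatment was given to any group in the labels, which give no age, and there were no untreated or never pregnant cows, so day 10 served as the baseline.

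T cells recognise antigen through a receptor whose signal is carried into the cell by the CD3 chains. CD8 marks most cytotoxic T cells and CD4 most helper T cells, while natural killer cells kill without that receptor and read stress ligands through receptors such as KLRK1 (NKG2D) and NCR1 (NKp46). Both kinds of killer cell release perforin, which opens the membrane of the target cell, and granzymes, serine proteases that enter through it. The endometrium holds such lymphocytes among its glands and stroma, together with macrophages, mast cells and, in the weeks after calving, neutrophils.

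Levels are log2 signals relative to the 75th percentile of all spots of an array, so that 0 lies at that percentile and 1 unit is a doubling of the signal. Levels of different probes cannot be set against each other as amounts of RNA. In a biopsy, fewer cells of a type and less RNA per cell cannot be told apart. Each cow had its own slide, and the 4 days held the same array position on every slide, so position and day cannot be told apart. Between 61.2% and 77% of spots were well above background on an array, and no spot was saturated. Tests were limma's moderated tests on all 33182 tested probes with the cow as a block, and a probe was called at a Benjamini-Hochberg adjusted p under 0.05.

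Of the marker genes of epithelium and stromal fibroblasts, which make up endometrium, 9 of 9 and 8 of 8 found on the array passed the filter on dim probes. The epithelium list held 10 genes, of which 9 were on the array. The biopsies also differed in their makeup, measured as the mean centred level of marker lists. Leukocyte markers common to all types averaged 1.75 in cow 1 and 1.73 in cow 4 on day 10, and between -1 and 0.95 in the remaining arrays. Neutrophil markers reached 4.35 and 4.24 in those same day 10 biopsies. At day 100 the epithelium list was 2.86 in cow 1 and -3.44 in cow 2, and smooth muscle was -3.92 and 2.21. Calls of members and of other named genes are given below also without the day 10 arrays of cows 1 and 4 and, separately, without the day 100 arrays of cows 1 and 2.

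The name GZMB covered 2 places on chromosome 21 of the Btau_3.1 build given in the array files, and these did not behave alike. Probes A_73_P069221 and A_73_112113 carry the accession NM_174296 and lie on the plus strand within 34820734 to 34820920. The RefSeq table of the ARS-UCD2.0 assembly gives this transcript the symbol GZMB with the other names BDMD1, that of a duodenase, and CTLA1. Probes A_73_110209 and A_73_P069241 lie 162 kb away on the minus strand, within 34983314 to 34983413. The first of these carries XM_585453, described in the files as a predicted transcript similar to granzyme B, and the 2 probes overlap by 20 bases, so they are not independent. The sequences of 1 probe from each place are shown because all further GZMB values turn on which place a probe reads. Over 35 bases where they align without gaps, 27 are identical, and the 8 that differ are in capitals. One more probe, no member because the files give it a transcript identifier in place of a gene name, is described there as a bovine granzyme B mRNA with accession FJ176745 and lies between the 2 places, at 34882292 to 34882351.
GZMB, NM_174296, A_73_P069221: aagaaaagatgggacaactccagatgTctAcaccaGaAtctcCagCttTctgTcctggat
GZMB, second place, A_73_P069241: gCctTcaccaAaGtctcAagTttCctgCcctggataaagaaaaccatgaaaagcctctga
granzyme B mRNA, FJ176745, A_73_P069216: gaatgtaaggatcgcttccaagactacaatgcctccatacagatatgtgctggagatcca

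In A_73_P069221 and the FJ176745 probe, 3 and 2 of the reading frames hold no stop codon, and A_73_P069241 has 1 frame whose only stop is its last codon, tga. The other NM_174296 probe, A_73_112113, shares the run AGGAAGGTTGCCTGGAACTT with a probe of LOC100125946, a neighbouring gene. Over the 34 bases where those 2 probes align, 33 are identical, so either probe may take some signal from the other gene's transcript. The LOC100125946 probe lies at 34882923 to 34882982, nearer to the FJ176745 probe than to either GZMB place. No other member probe shared a run of 20 or more bases with a probe of another gene on this array, and 3.66% of all probes did. The genome was not searched, so this does not show that a member probe reads only its own gene. Repeats outside the array's probes would have been missed.

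Among the members, both NM_174296 probes named GZMB rose, NKG7 and CD4 fell, and the other 6 tested genes passed no test between days. The other 2 GZMB probes passed no test, and which granzyme-like gene the NM_174296 probes read was not tested. All 3 calls were between day 10 and day 100, all 3 ended without the day 100 arrays of cows 1 and 2, and 1, that of GZMB, was kept without the day 10 arrays of cows 1 and 4. At day 100, 3 of 9 genes passed, 1 higher and 2 lower, against 4.6% of all tested probes, of which 1.45% were higher and 3.15% lower. Between day 30 and day 10, 0 of 9 genes passed, and 0.419% of all probes did (0.0121% higher and 0.407% lower). Between day 50 and day 10, 0 of 9 genes passed, and 1.65% of all probes did (0.594% higher and 1.05% lower). At an unadjusted p under 0.05, 2, 4 and 5 of the 18 member probes passed at days 30, 50 and 100 against day 10, shares near those over all tested probes, which were 14%, 18.6% and 25.7%. None of the 33182 probes was called between days 30 and 50, days 30 and 100, or days 50 and 100, each 0%, although 3096, 4250 and 1042 probes had an unadjusted p under 0.05 in limma. Those are 9.33%, 12.8% and 3.14% of the tested probes, and 0, 2 and 0 of the 18 member probes were among them. These counts of 0 over all probes were not stable: array weights gave 408 calls between days 30 and 50, and leaving out day 100 of cow 2 gave 112 between days 30 and 100. For any difference among the 4 days, 1.03% of all probes and 0 of 9 member genes passed, and NKG7 came nearest with an adjusted p of 0.0528 by limma's moderated F test.

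The median log2 difference of the 18 member probes was -0.50, -0.16 and -0.19 at days 30, 50 and 100 against day 10. Over all probes the medians were -0.01, -0.03 and -0.07. The counts over all probes moved with the processing. With normexp background correction, 1494 probes were called higher and 605 lower at day 100, against 482 and 1045 in the setting used here. Quantile normalization, run as a separate setting, gave 643 higher and 826 lower. The normexp setting shifted the median of all probes by 0.30 at day 100.

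**Figure D1:**
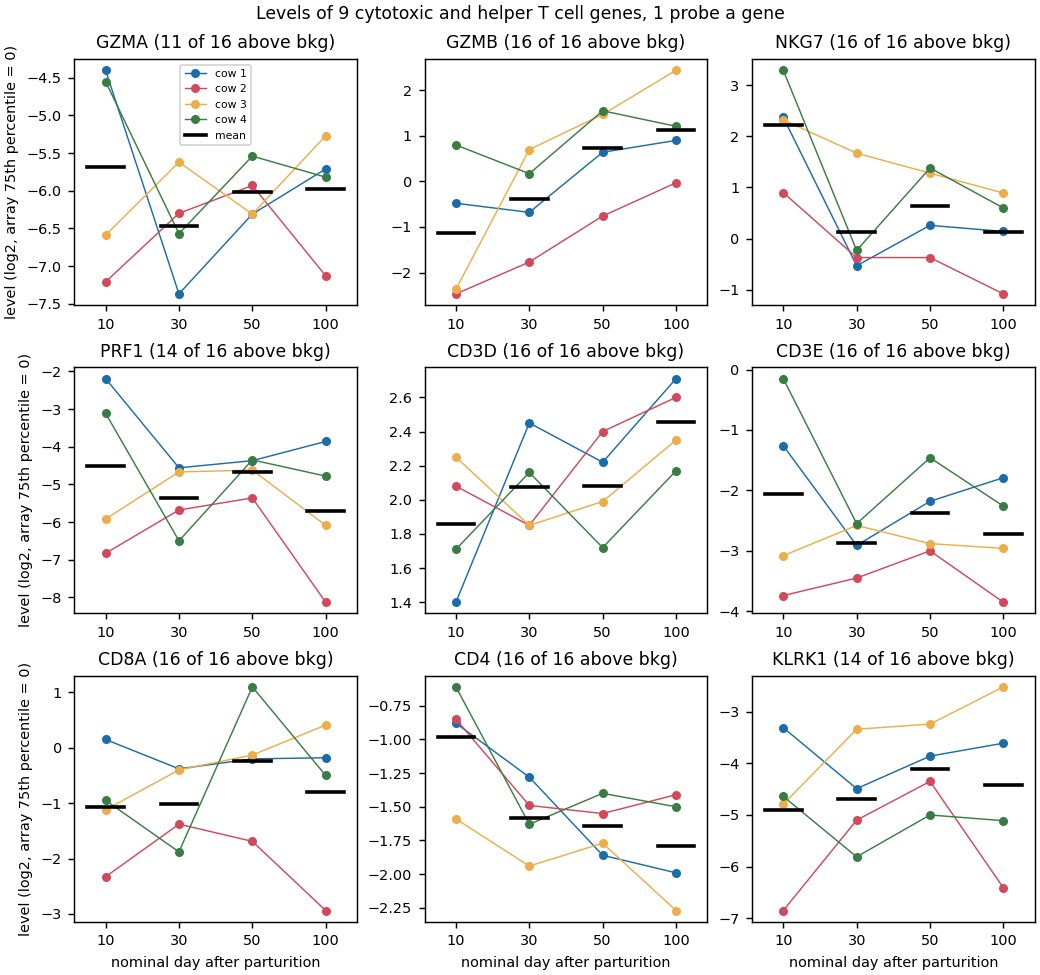
Level of the probe with the highest mean of each of the 9 tested genes (y axis, log2, array 75th percentile at 0) at the 4 nominal days (x axis), with 1 coloured line a cow and a black bar for the mean of 4 cows. NKG7 and CD4 are highest at day 10 and GZMB at day 100, while GZMA, PRF1 and CD3E have their highest day 10 values in cows 1 and 4.

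**Figure D2:**
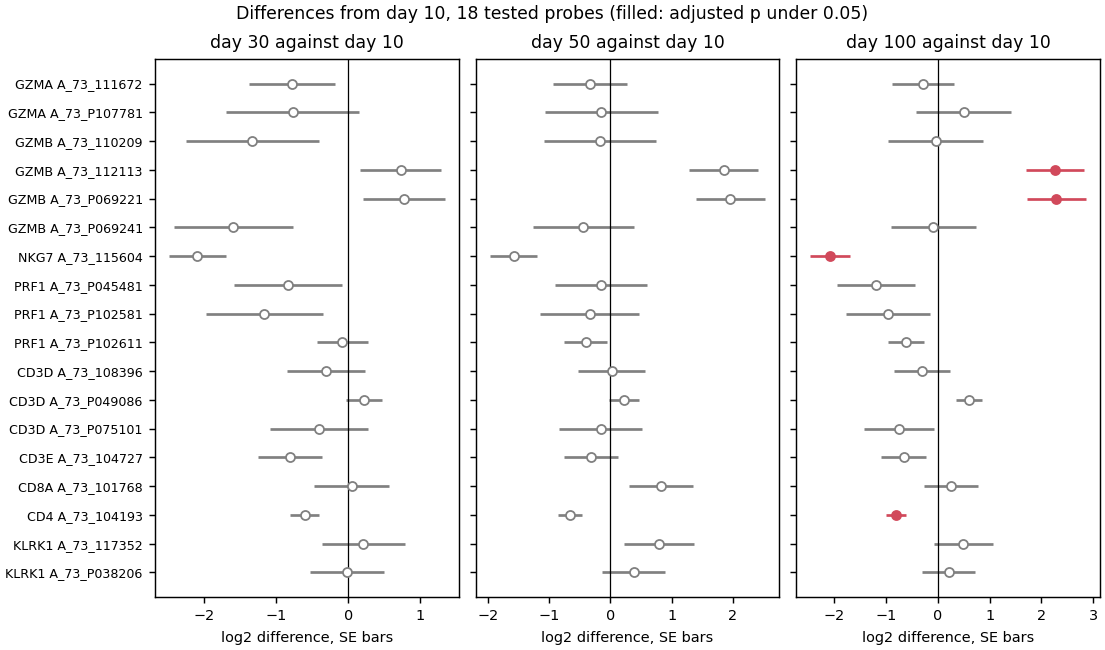
Log2 difference from day 10 (x axis) of each of the 18 tested probes (y axis), with bars of 1 SE from limma, for days 30, 50 and 100. Filled points have an adjusted p under 0.05, and these are both NM_174296 probes of GZMB, NKG7 and CD4, all at day 100.

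Granzyme B starts apoptosis in target cells by cutting proteins at aspartate, while duodenases are related serine proteases, and the NM_174296 transcript carries names of both. Its probe A_73_112113 stood at -0.48, -2.47, -2.37 and 0.80 in cows 1 to 4 at day 10, and at -0.68, -1.77, 0.70 and 0.17 at day 30. At day 50 it was 0.64, -0.76, 1.47 and 1.55, and at day 100 it was 0.90, -0.03, 2.44 and 1.21. Every cow was higher at day 50 and at day 100 than at its own day 10, although the groups overlap, since cow 4 already stood at 0.80 at day 10. The difference at day 100 was 2.26 ± 0.56 (SE, n = 4 cows), 4.79-fold, with an adjusted p of 0.0441 by limma, and the second probe of that transcript, A_73_P069221, gave 2.29 ± 0.57 with an adjusted p of 0.0464. At day 50 the differences of these probes were 1.85 ± 0.56 and 1.96 ± 0.57, with adjusted p of 0.112 and 0.104. The day 100 call ended on leaving out any 1 of 14 of the 16 arrays (adjusted p 0.0523 to 0.135) and held without day 10 of cow 4 (0.041) or day 30 of cow 4 (0.0442). Without cow 3 the difference was 1.41 and without its day 10 array 1.50. Leaving out the day 10 arrays of cows 1 and 4 gave 3.41 with an adjusted p of 0.0351, and without the day 100 arrays of cows 1 and 2 it was 2.30 with 0.104. The mean difference over all 4 tested GZMB probes was 1.1.

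The probes of the second GZMB place passed no test. A_73_110209 stood at -3.10, -6.37, -5.60 and -2.03 in cows 1 to 4 at day 10, and at -5.80, -5.65, -4.79 and -6.17 at day 30. It was -2.91, -5.18, -4.83 and -4.88 at day 50 and -1.73, -7.09, -3.22 and -5.24 at day 100. The high values were those of cows 1 and 4 at day 10, of cow 1 at days 50 and 100 and of cow 3 at day 100, and all days overlap. Its day 100 difference was -0.04 ± 0.92 and that of A_73_P069241 was -0.09 ± 0.82, with adjusted p of 0.982 and 0.955. Within an array, the NM_174296 signal gained on that of A_73_110209 from day 10 to day 100 by 3.16, 2.43 and 3.61 log2 units in cows 2, 3 and 4, but by 0.01 in cow 1. Whether the changes at the 2 places differ was not tested. Over the 16 arrays A_73_112113 correlated with A_73_P069221 at r = 1.00 and with A_73_110209 at r = 0.48, and A_73_110209 with A_73_P069241 at r = 0.96. The FJ176745 probe followed A_73_110209 (r = 0.90) more than A_73_112113 (r = 0.63), and its day 100 difference was 0.70 ± 0.74 with an adjusted p of 0.569. The LOC100125946 probe followed A_73_112113 (r = 0.97), with a day 100 difference of 1.97 ± 0.56 and an adjusted p of 0.0643. These correlations are descriptions over the same 16 arrays and 4 slides.

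Of 12981 gene symbols searched, the pattern most like that of A_73_112113 was CPA3, the carboxypeptidase of mast cell granules, at r = 0.96, then LOC404103, described as spleen trypsin inhibitor, at 0.94. CPA3 stood at -5.64, -8.47, -7.89 and -3.54 in cows 1 to 4 at day 10 and was well above background in 1 of them. At day 100 it was well above background in all 4 cows, at -3.77, -4.09, -1.52 and -2.65. CPA3 was called higher at days 50 and 100, with fitted differences of 3.43 ± 0.75 and 3.38 ± 0.75 and adjusted p of 0.0472 and 0.0316 by limma. Because 3 of its 4 day 10 values were not well above background, these sizes are uncertain. They were 5.02 and 4.97 without the day 10 arrays of cows 1 and 4 (adjusted p 0.0295 and 0.0259), and without the day 100 arrays of cows 1 and 2 they were 3.43 and 3.29 (0.0469 and 0.0879). TPSB2, a mast cell tryptase, rose by 2.50 ± 0.54 at day 50 (adjusted p 0.0474), and 2 of the 5 tested mast cell markers passed at day 50 and 1 at day 100. Of all tested probes, 0.594% and 1.45% were called higher at those days. HDC, KIT and FCER1A did not pass at either day. By sign alone, 4 of the 5 markers were higher and 1 was lower than at day 10, at day 50 and again at day 100. Leaving out 1 array ended the CPA3 calls at days 50 and 100 in 13 and 4 of 16 cases, and the TPSB2 call in 11. TPSB2 at day 50 was 3.05 with an adjusted p of 0.149 without the day 10 arrays of cows 1 and 4, and 2.50 with 0.0451 without the day 100 arrays of cows 1 and 2. The mast cell list correlated with A_73_112113 at r = 0.91 and the pan-leukocyte list at 0.22, while for A_73_110209 those values were 0.40 and 0.74. Singly, the 5 mast cell markers correlated with A_73_112113 from 0.58 to 0.96, with CPA3 highest and TPSB2 next at 0.74. The highest r with that probe was 0.72 among T cell receptor signalling genes, 0.78 among B and plasma cell markers and 0.80 among epithelium markers. Among the 13 tested natural killer receptors the correlation with A_73_112113 ranged from -0.17 to 0.84, with KLRF1 and NCR3 at 0.84 and 0.81. The part of mast cells in the GZMB result was not tested. The single-gene search for each member was added after the values had been seen.

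**Figure D3:**
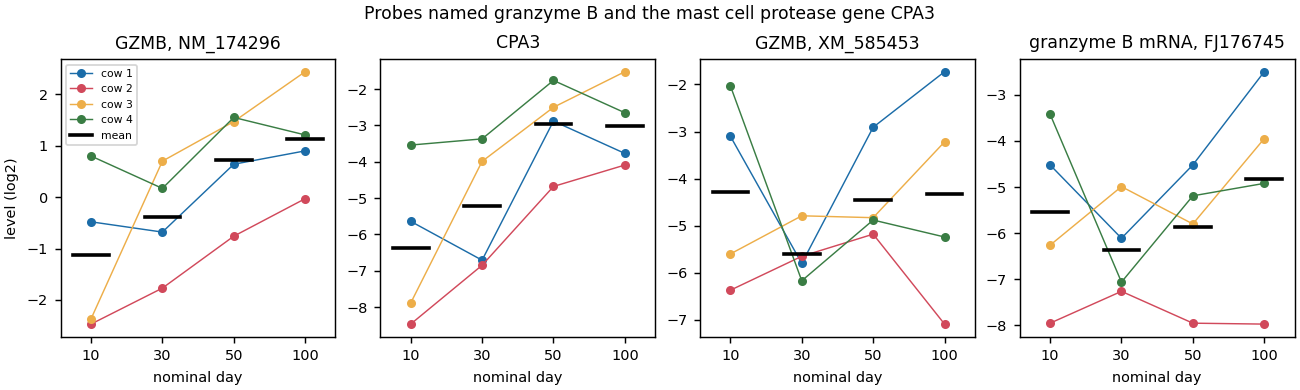
Levels (y axis, log2) of the GZMB probes A_73_112113 (NM_174296) and A_73_110209 (XM_585453), of CPA3 and of the FJ176745 granzyme B probe at the 4 nominal days (x axis), with 1 line a cow and a black bar for the mean. In the first GZMB panel and in CPA3 all 4 cows are higher at day 100 than at day 10, while the XM_585453 panel is split, with cows 1 and 3 higher and cows 2 and 4 lower.

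NKG7 is a membrane protein of the cytotoxic granules of killer cells. Its single probe, on chromosome 18 at 57350272 to 57350331, stood at 2.37, 0.90, 2.32 and 3.29 in cows 1 to 4 at day 10. It was -0.53, -0.37, 1.67 and -0.23 at day 30, 0.26, -0.37, 1.28 and 1.38 at day 50, and 0.14, -1.08, 0.89 and 0.60 at day 100. All 4 cows were lower at every later day than at day 10, and the day 10 and day 100 values do not overlap, cow 2 at day 10 being level with cow 3 at day 100. NKG7 fell by 2.08 ± 0.39 at day 100 (SE, n = 4 cows), a 4.23-fold drop with an adjusted p of 0.0188 by limma. At day 30 the difference was -2.09 ± 0.39 with an adjusted p of 0.0507, and at day 50 -1.58 ± 0.39 with 0.0679, so neither passed. The day 100 call ended without day 10 of cow 1 (adjusted p 0.0709), day 10 of cow 4 (0.06), day 100 of cow 3 (0.0581) or day 100 of cow 4 (0.0542). With the pan-leukocyte level as a covariate the difference was -1.30 with an adjusted p of 0.0747, and without the day 10 arrays of cows 1 and 4 it was -1.44 with 0.176. The call also ended without the day 100 arrays of cows 1 and 2 (-2.10, adjusted p 0.0558), without the cow as a block (0.071), with only the 8 arrays of both days (0.109), and without cow 1 (0.0961), cow 3 (0.0664) or cow 4 (0.0734). In all, 12 of 35 alternatives ended it.

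The genes whose pattern was most like that of NKG7 were LY9, a receptor of the SLAM family on immune cells, and CD68, a lysosomal glycoprotein of macrophages, both at r = 0.97 over the 16 arrays, followed by TRPA1 at 0.95. All 10 macrophage markers correlated with NKG7 between 0.86 and 0.97, and the macrophage list as a whole at 0.94. The 16 tested genes of T cell receptor signalling had a median r of 0.55 with NKG7 and CD3E had 0.63. The macrophage list fell with NKG7: 6, 6 and 10 of its 10 tested markers were called lower at days 30, 50 and 100, and none was called higher. Of all tested probes, 0.407%, 1.05% and 3.15% were called lower at those days. CD68 itself fell by 2.17 ± 0.37, 2.01 ± 0.37 and 2.30 ± 0.37 and CD14 changed by -3.21, -3.06 and -3.19, each ± 0.45. CD68, without the day 10 arrays of cows 1 and 4, gave differences of -1.68, -1.52 and -1.81 with adjusted p of 0.567, 0.23 and 0.121, and CD14 at -2.35, -2.21 and -2.34 with 0.229, 0.1 and 0.0654. Without the day 100 arrays of cows 1 and 2, CD68 at day 30 had an adjusted p of 0.0542, and its calls at days 50 and 100 and the 3 calls of CD14 were kept. The macrophage list ranged from 0.95 to 2.59 at day 10 and from -1.32 to -0.03 at day 100. The part of macrophages in the NKG7 result was not tested.

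**Figure D4:**
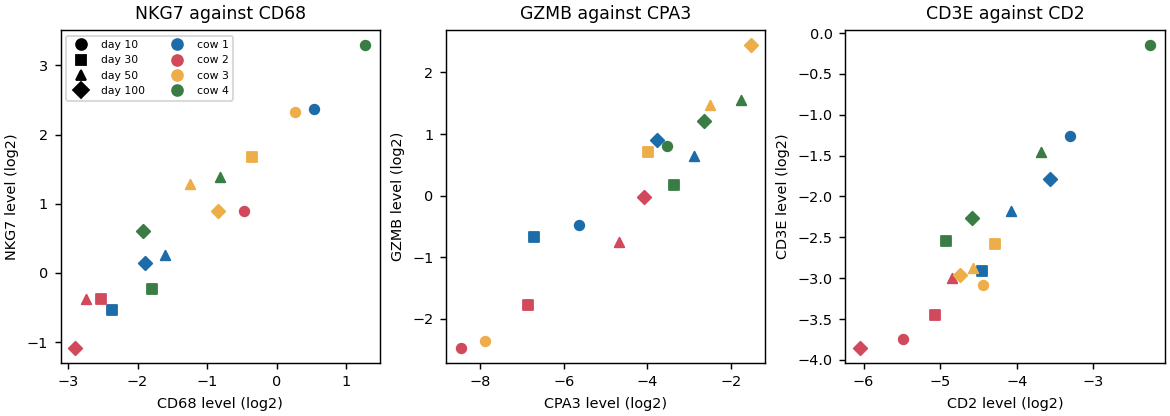
Level of NKG7 against CD68, of GZMB probe A_73_112113 against CPA3, and of CD3E against CD2 (both axes log2) over the 16 arrays, with colour for the cow and shape for the nominal day. The r values are 0.97, 0.96 and 0.95, and the 3 highest NKG7 values are day 10 arrays, while the lowest GZMB values are also day 10 arrays.

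CD4 is the coreceptor that binds MHC class II on antigen-presenting cells, and in several species macrophages carry it too. Its only tested probe, A_73_104193 on chromosome 5 at 10615420 to 10615479, stood at -0.88, -0.85, -1.59 and -0.61 in cows 1 to 4 at day 10. It was -1.28, -1.49, -1.94 and -1.63 at day 30, -1.86, -1.55, -1.77 and -1.40 at day 50, and -1.99, -1.41, -2.27 and -1.50 at day 100. Each cow was lower at every later day than at day 10, but the groups overlap because cow 3 began at -1.59. CD4 fell by 0.81 ± 0.20 at day 100, 1.75-fold, with an adjusted p of 0.0475 by limma. The differences at days 30 and 50 were -0.60 ± 0.20 and -0.66 ± 0.20, with adjusted p of 0.222 and 0.12. The call ended on leaving out any 1 of 14 of the 16 arrays (adjusted p 0.0503 to 0.127) and held without day 30 of cow 4 (0.0374) or day 100 of cow 2 (0.0353). It also ended with normexp, where the difference was -0.51, while relative to the median of all probes it was -0.74 in the setting used here and -0.73 with normexp. Its difference without the day 10 arrays of cows 1 and 4 was -0.64 with an adjusted p of 0.279, and without the day 100 arrays of cows 1 and 2 it was -0.82 with 0.0894. The other CD4 probes exceeded background in 3, 0 and 0 arrays and gave no second measure of CD4.

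CD4 did not follow the other T cell genes closely. It correlated with CD3E at r = 0.32, with CD8A at -0.29 and with KLRK1 at -0.50, and the most similar gene, TBC1D14, reached 0.86. Its correlations with the 10 macrophage markers ran from 0.37 to 0.58 and with the 5 neutrophil markers from 0.34 to 0.59.

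CD3E and CD3D are signalling chains of the T cell receptor complex and define T cells. CD3E, measured by A_73_104727 on chromosome 15 at 27446810 to 27446869, stood at -1.26, -3.74, -3.08 and -0.15 in cows 1 to 4 at day 10 and at -2.91, -3.45, -2.58 and -2.55 at day 30. It was -2.18, -3.00, -2.88 and -1.46 at day 50 and -1.79, -3.85, -2.96 and -2.26 at day 100. Cows 1 and 4 at day 10 were the highest arrays, whereas cows 2 and 3 at day 10 lay among the lowest. The differences from day 10 were -0.81, -0.32 and -0.66, each ± 0.44, with adjusted p of 0.428, 0.744 and 0.362. Without the day 10 arrays of cows 1 and 4 they were 0.08, 0.57 and 0.23. CD3E was most like CD2, an adhesion receptor of T and natural killer cells (r = 0.95). Also among its most similar genes were CST7, CCR7, BATF and CD5, at 0.94, 0.93, 0.92 and 0.92. Its second probe was well above background on 3 arrays.

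The 3 CD3D probes disagreed. A_73_P049086, which stood for the gene by its highest mean, ranged from 1.40 to 2.71 over the 16 arrays and gave differences of 0.22, 0.22 and 0.60, each ± 0.25, with adjusted p of 0.717, 0.677 and 0.158. A_73_P075101 ranged from -8.13 to -2.87 and gave -0.40, -0.16 and -0.75, each ± 0.68. Its sequence is shown because all 3 of its reading frames are free of stop codons, whereas A_73_P049086 has no such frame. The tested probes of CD3E and NKG7 have no such frame either, so this does not show which CD3D probe reads the gene.
CD3D, A_73_P075101: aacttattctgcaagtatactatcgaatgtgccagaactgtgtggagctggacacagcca

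The 2 probes ran against each other at r = -0.55. A_73_P075101 correlated with CD3E at r = 0.91, and the genes most like it were CXCR6, RAC2 and CD2, at 0.93, 0.93 and 0.92. A_73_P049086 correlated with CD3E at -0.49 and with the macrophage list at -0.70, and its most similar genes were MPP3, TNFRSF10D and TMCO5B. The third probe, A_73_108396, correlated with CD3E at 0.79 and gave -0.31, 0.02 and -0.30, each ± 0.54. None of the 3 probes passed a test.

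CD8A is a chain of the coreceptor for MHC class I. Its tested probe, on chromosome 11 at 49858974 to 49859033, stood at 0.15, -2.33, -1.12 and -0.95 in cows 1 to 4 at day 10 and at -0.38, -1.38, -0.40 and -1.88 at day 30. It was -0.20, -1.69, -0.13 and 1.1 at day 50 and -0.18, -2.94, 0.41 and -0.50 at day 100. Cow 2 was lowest at days 10, 50 and 100, and the 4 days overlap throughout. The differences were 0.05, 0.83 and 0.26, each ± 0.52, with adjusted p of 0.974, 0.424 and 0.781. Within an array, CD8A moved relative to CD4 from day 10 to day 50 by 0.63, 1.33, 1.16 and 2.84 log2 units in cows 1 to 4. To day 30 the same ratio moved by -0.13, 1.58, 1.07 and 0.09, and to day 100 by 0.78, -0.05, 2.21 and 1.33, so its direction differed between cows at both of those days, and the ratio was not tested. CD8A correlated with the epithelium list at 0.78 and with the pan-leukocyte list at 0.46, with ODC1 as the most similar gene at 0.87. A second CD8A probe was well above background on 1 array.

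PRF1 encodes perforin. Its probe A_73_P045481 stood at -2.19, -6.83, -5.92 and -3.11 in cows 1 to 4 at day 10 and at -3.86, -8.13, -6.09 and -4.78 at day 100. All 4 cows were lower at day 100, yet the difference of -1.20 ± 0.75 did not pass (adjusted p 0.329). With the epithelium and smooth muscle levels as covariates the difference was -1.78 ± 0.41 with an adjusted p of 0.0367, and with the pan-leukocyte level it was 0.26 with 0.868. At days 30 and 50 the differences were -0.83 and -0.16, each ± 0.75. The other 2 PRF1 probes gave -0.96 ± 0.81 and -0.61 ± 0.35 at day 100 and passed no test. The probes A_73_P045481 and A_73_P102581 correlated at 0.82, and A_73_P102611 correlated with them at -0.01 and 0.24, so the 3 probes of this gene did not all move together.

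GZMA encodes granzyme A, a tryptase-like protease of the same granules. Its probe A_73_111672 was well above background on 11 arrays and stood at -4.40, -7.21, -6.59 and -4.55 in cows 1 to 4 at day 10. At day 100 it was -5.71, -7.13, -5.27 and -5.82. The differences were -0.78, -0.33 and -0.29, each ± 0.60, with adjusted p of 0.585, 0.816 and 0.788. Cows 1 and 4 were highest at day 10, while cows 2 and 3 were higher at day 30 than at day 10, so the cows shared no direction. Without the day 10 arrays of cows 1 and 4 the differences were 0.50, 0.95 and 0.99. Granulysin, GNLY, another granule protein, was among the 10 most similar genes at r = 0.90.

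KLRK1 is the activating receptor for the stress ligands of the MIC and ULBP families. Its probes A_73_117352 and A_73_P038206 correlated at 0.98, were each well above background on 14 arrays, and are on chromosome 5. A_73_117352 stood at -3.31, -6.85, -4.79 and -4.64 in cows 1 to 4 at day 10 and at -3.61, -6.41, -2.52 and -5.11 at day 100. Cow 3 was higher at every later day, cow 1 lower, and the differences of 0.21, 0.79 and 0.49, each ± 0.57, did not pass. KLRK1 correlated with CD8A at 0.74 and with the epithelium list at 0.79. NCR1, the natural killer receptor NKp46, was well above background in only 2 of the 16 arrays, cow 4 at day 10 and cow 4 at day 100, where it stood at -6.36 and -5.88. No comparison between days could be made for NCR1 at this signal.

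**Figure D5:**
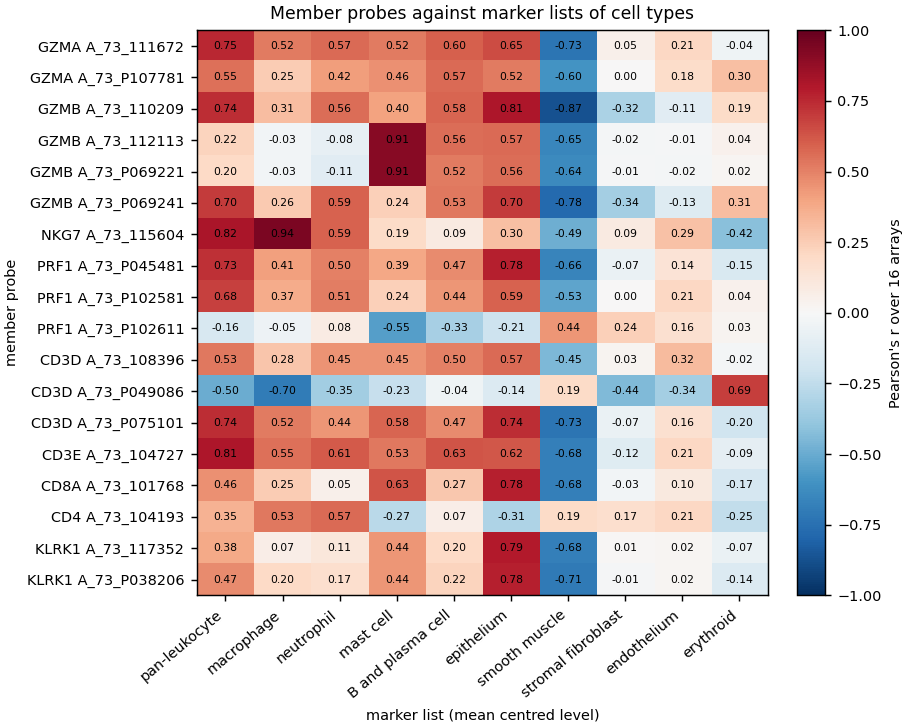
Pearson's r over the 16 arrays (colour and printed value) of the 18 tested member probes (rows) with the mean centred level of 10 cell type marker lists (columns). The NM_174296 probes of GZMB stand out in the mast cell column at 0.91 and NKG7 in the macrophage column at 0.94, while most T cell and granule probes are positive with the epithelium list and negative with smooth muscle.

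Across the members, 14 of the 18 probes correlated with the epithelium list above 0.5 and 13 with the smooth muscle list below -0.5. The shares of all tested probes past these limits were not computed, so the counts do not set the members apart from other genes. Day 100 of cow 2, the array with the lowest epithelium level, also held the lowest value of the series for A_73_P045481 of PRF1, for CD3E, for CD8A and for A_73_110209. The part of tissue makeup in these levels was not tested. The 10 genes most like the mean of the 9 standardised gene patterns, by Pearson's r over the 16 arrays, were LOC510988, LOC530077, STK17B, CST7, CXCR6, SLC15A1, LOC100125415, TTC9, LAMP3 and SCML4, with r from 0.93 to 0.96. The files describe LOC510988 and LOC100125415 as GIMAP7 and LOC530077 as similar to GIMAP5, which are GTPases of lymphocytes.

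Other genes of these cells were taken from 6 lists. Of the 16 tested genes of T cell receptor signalling, 0 passed at days 30, 50 and 100 by limma, and 1, 2 and 0 had an unadjusted p under 0.05, which over all probes 14%, 18.6% and 25.7% had. Their median differences were -0.46, -0.23 and -0.26. Of 12 tested helper and regulatory genes, 2 had an unadjusted p under 0.05 at each later day, and 1 was lower at day 100, IL10, an anti-inflammatory cytokine, which fell by 0.86 ± 0.21 with an adjusted p of 0.0442. IL10 was lower in 4 of 4 cows, its day 10 and day 100 values do not overlap, and with normexp its difference was 0.02. IL10 without the day 10 arrays of cows 1 and 4 was -0.55 (adjusted p 0.293), and without the day 100 arrays of cows 1 and 2 it was -1.03 (0.0594). Of 4 tested gamma delta T cell genes, 0 passed by limma at any of the 3 days, and 0, 1 and 1 had an unadjusted p under 0.05.

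Of 13 tested genes of granules and killing, 2, 3 and 2 had an unadjusted p under 0.05 at days 30, 50 and 100. Over all tested probes 14%, 18.6% and 25.7% had. In this list 1 gene was called lower at each later day. This was CTSC, the protease that activates granzymes and that is also active in myeloid cells, which stood at 1.97, 0.42, 1.79 and 2.69 in cows 1 to 4 at day 10 and at -1.26, -1.15, 0.19 and -0.20 at day 100. CTSC fell by 1.88 ± 0.33, 1.97 ± 0.33 and 2.32 ± 0.33, with adjusted p of 0.0413, 0.0236 and 0.00733, and correlated with NKG7 at 0.93. Of 13 tested natural killer receptor genes, 2, 3 and 5 had an unadjusted p under 0.05, and 1 was called lower at each later day: TYROBP, the signalling adaptor DAP12, which myeloid cells also use. TYROBP fell by 1.97 ± 0.36, 1.81 ± 0.36 and 2.06 ± 0.36, with adjusted p of 0.0437, 0.0357 and 0.0143, and its day 10 values do not overlap with those of any later day. No single array ended the day 100 call of CTSC, and day 10 of cow 1 alone ended that of TYROBP (adjusted p 0.0507). At days 30 and 50 the call ended on leaving out any 1 of 12 and of 5 arrays for CTSC, and of 11 and of 8 for TYROBP. Without the day 10 arrays of cows 1 and 4 all 6 of these calls ended, with day 100 differences of -1.74 for CTSC and -1.38 for TYROBP and adjusted p of 0.0811 and 0.127. Without the day 100 arrays of cows 1 and 2 the day 30 calls ended (adjusted p 0.0533 for CTSC and 0.055 for TYROBP) and those of days 50 and 100 were kept.

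Of 20 tested ligands, cytokines and homing genes, 1, 0 and 2 were called lower at days 30, 50 and 100. An unadjusted p under 0.05 was found for 8, 7 and 10 of them, and for 14%, 18.6% and 25.7% of all tested probes. The median differences of the 20 genes were -0.95, -0.95 and -1.11. CXCL9, a chemokine that draws T cells through CXCR3, stood at 2.00, -1.19, -1.35 and 2.29 in cows 1 to 4 at day 10 and at -4.16, -4.08, -2.16 and -3.41 at day 100. CXCL9 fell by 3.89 ± 0.79 at day 100 with an adjusted p of 0.024, and the days do not overlap. IL12A, a chain of the cytokine that drives natural killer and helper T cells, fell by 3.36 ± 0.58 at day 30 and by 2.29 ± 0.58 at day 100, with adjusted p of 0.0341 and 0.0476. At day 50 its difference of -1.77 ± 0.58 did not pass (adjusted p 0.135). Leaving out 1 array ended the CXCL9 call in 4 of 16 cases, the IL12A calls in 11 and 13, and the IL10 call in 12. Without the day 10 arrays of cows 1 and 4, CXCL9 was -2.21 at day 100 (adjusted p 0.183) and IL12A was -2.40 and -1.33 at days 30 and 100 (0.51 and 0.293), so these calls ended. Without the day 100 arrays of cows 1 and 2, CXCL9 was -3.20 (0.0939) and IL12A -1.72 at day 100 (0.168), while its day 30 call was kept (0.0469).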

How the data were processed

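The deposited intensities are Agilent Feature Extraction processed signals, background-subtracted and detrended within each array per the file headers, which give version 11.5.1.1, while the submitters' processing notes give 10.5.1.1. The authors' deposited value table holds log2 values whose scale and centring are not stated. Its columns correlated with the values used here at r from 0.9998 to 1, with column medians from -0.16 to 0.21, and it was used as an alternative.

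From the processed signals, log2 values minus the array's 75th percentile were taken, spots with the nonuniformity flag were left out and spots of a probe averaged. Of 43653 probes, 33182 were well above background, per the deposited flags, in 4 or more arrays. A model of day plus cow was fitted in limma 3.58.1 (R 4.3.3) with empirical Bayes and Benjamini-Hochberg adjustment over these probes. A gene with several probes was represented by that with the highest mean. The cow is the pairing: deviations from the day means correlated at a median r of 0.12 within and -0.04 between cows. The number of arrays limits the precision, and the median SE of a difference was 0.362. Scripts were tested on simulated data.

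All members are described. Of other genes, those passing a test in the lists of other genes of these cells were named. The 10 with the highest Pearson's r to the members' mean were named too, and others were chosen after their values were seen. Not all genes called in the cell type marker lists were named. The members and lists were chosen with earlier results of these data known. Alternatives covered the background correction, scaling, filter, array weights, covariates for tissue makeup, the replicate block, the choice of probe, and arrays or cows left out.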

Additional observations from a re-analysis of the deposited data

Results flagged for a closer look

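NKG7 stood at 1.67 in cow 3 at day 30, where the other cows lay between -0.53 and -0.23. The gap to the nearest cow was 0.864 of the whole range of that day, past Dixon's limit of 0.83 for 4 samples. It was the only such value among the 40 groups of 4 arrays checked, and chance gives about 1 in 20.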

How the results depend on the processing

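At day 100 against day 10, 3 member genes passed. Without the replicate block 0 passed, and the adjusted p was 0.112 for GZMB, 0.071 for NKG7 and 0.0863 for CD4. The count was 1 with quantile normalization, 1 without the filter on dim probes, 1 with array weights, 1 with the pan-leukocyte covariate and 1 without the day 10 arrays of cows 1 and 4. It was 0 with only the 8 arrays of the 2 days and 0 without the day 100 arrays of cows 1 and 2, and with 1 array or cow left out it ran from 0 to 3. At day 30 the count of 0 became 1 with normexp and 1 with array weights, at day 50 it became 1 with normexp, 3 with array weights and 1 with only 8 arrays, and for any difference among days 1 with normexp, 1 with array weights and 1 with the epithelium and smooth muscle covariates. With 1 array or cow left out these counts ran from 0 to 1. Over all probes, the 139 calls of day 30 ranged between 4 and 514 under the alternatives, the 547 of day 50 between 21 and 5229, the 1527 of day 100 between 44 and 3104, and the 342 for any difference between 19 and 2795. The counts of 0 ranged up to 408 for day 50 against day 30 and 112 for day 100 against day 30, and stayed at 0 for day 100 against day 50.

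The sign of several differences that had not passed turned, and the cause was not tested. With the pan-leukocyte covariate, CD3D was -0.27 and -0.12 at days 30 and 50, CD3E 0.69, 0.74 and 0.33 at days 30, 50 and 100, GZMA 1.11, 1.01 and 0.96, and PRF1 1.38, 1.40 and 0.26. Without the day 10 arrays of cows 1 and 4, CD3D was -0.12 and -0.12, CD3E 0.08, 0.57 and 0.23, GZMA 0.50, 0.95 and 0.99, and PRF1 0.52, 1.19 and 0.15. With normexp, CD8A was -0.03 at day 30, GZMA 0.05 at day 30 and 0.52 at day 100, PRF1 0.12 at day 100, and IL10, which had passed, 0.02 at day 100. Quantile normalization gave 0.07 for GZMA at day 100. The second-brightest probe gave -0.40, -0.16 and -0.75 for CD3D, -0.02 for KLRK1 at day 30 and 0.50 for GZMA at day 100. The mean over tested probes gave -0.17 and -0.15 for CD3D at days 30 and 100, -0.35 for GZMB at day 30 and 0.11 for GZMA at day 100. With 1 array or cow left out, CD3D ran from -0.06 to 0.42 and from -0.02 to 0.40 at days 30 and 50, CD8A from -0.36 to 0.54 and from -0.17 to 0.63 at days 30 and 100, GZMB from -0.05 to 1.21 at day 30, and KLRK1 from -0.30 to 0.68 and from -0.11 to 0.88 at days 30 and 100. PRF1 ran from -1.53 to 0.02 and from -0.70 to 0.51 at days 30 and 50, CD3E from -0.68 to 0.12 at day 50, and GZMA from -0.87 to 0.20 and from -0.83 to 0.24 at days 50 and 100. Differences of probes near background are uncertain in size, and for NCR1, which did not pass the filter on dim probes, none is given.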
